A study of Rattus norvegicus with 18 samples.

Results

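The genes described here are 10 members of the signalling machinery that lies downstream of opioid receptors, namely 7 adenylyl cyclases (*Adcy1*, *Adcy2*, *Adcy3*, *Adcy6*, *Adcy7*, *Adcy8* and *Adcy9*), the PKA catalytic subunit gene *Prkaca*, and the beta-arrestin genes *Arrb1* and *Arrb2*. They were chosen by gene symbol, and all 10 were found among the 32623 genes listed for each pup. RNA-seq had been carried out on the prefrontal cortex (PFC) of 18 Sprague Dawley rat pups at postnatal day 14 (P14), with 6 pups in each of 3 groups. In the SAL group the dams received saline. In the PNO group the dams were gavaged with the opioid oxycodone (oxy) at 15 mg/kg/day from parturition, so that the pups were exposed after birth through the milk. In the IUO group the dams began at 10 mg/kg/day, were escalated to 15 mg/kg/day, were mated, and stayed on oxy through gestation and nursing, so that their pups were exposed both in utero and after birth. The groups came from different dams, the labels tie no pup to a litter, and the sex of each pup is not given in them, so that p-values measure the spread between these pups.

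Opioid receptors couple to inhibitory G proteins, which lower the activity of adenylyl cyclases, the membrane enzymes that make cyclic AMP from ATP. Cyclic AMP releases the catalytic subunits of protein kinase A (PKA), which phosphorylate channels, receptors and transcription factors. Beta-arrestins bind receptors that G protein-coupled receptor kinases have phosphorylated, uncouple them from G proteins and carry them into endocytosis. Cyclase isoforms differ in how they respond to calcium, to G protein beta-gamma subunits and to protein kinase C, and in cultured cells a long opioid exposure is known to raise cyclase activity on withdrawal.

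None of the 10 genes passed the test for a difference between groups. All 10 passed the filter on low counts and entered edgeR's quasi-likelihood test with 15703 genes in total, and 0 of the 10 had an adjusted p under 0.05 in any comparison. Over all genes the share called by that rule was 0% when PNO was compared with SAL, 0% when IUO was compared with SAL, and 0.0637% when the exposed groups, IUO and PNO, were compared, so that a count of 0 among 10 genes does not set the members apart. At an unadjusted p under 0.05 the edgeR count was again 0 of 10 in each comparison, beside 4.5% of all genes for PNO and 6.88% for IUO relative to SAL, and 15.3% for IUO relative to PNO. The ranges of the pups overlapped in all 30 sets of 1 gene and 1 comparison, which sets no member apart, since only 0.108% of all genes did not overlap between PNO and SAL, 0.745% in IUO relative to SAL and 1.66% in IUO relative to PNO. What some members did show was a large variation between pups of the same group. In it *Adcy1*, *Arrb1* and *Adcy9* moved together, while *Prkaca* and *Adcy6* hardly varied. Over all 45 pairs of members the median correlation was r = 0.062. Of all 15703 genes, 20.8% had an r beyond 0.8, in either direction, with a pup's share of counts from long genes. *Adcy1*, *Arrb1* and *Adcy9* were among these genes, which does not set them apart.

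**Figure D1:**
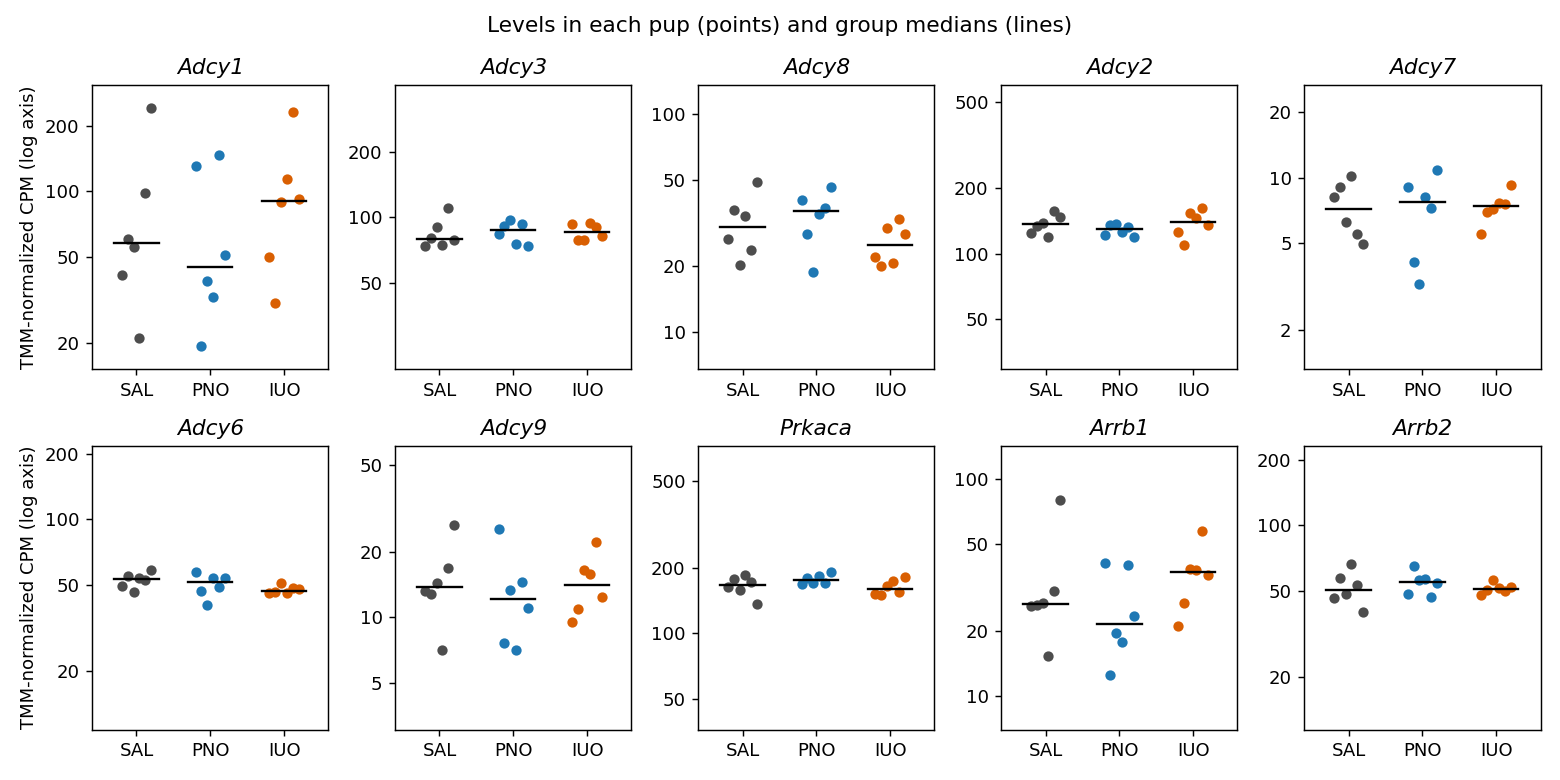
Level of each gene in every pup as TMM-normalized CPM (counts relative to library size, log axis with the same fold range in each panel), by group, with points for pups and lines for medians of 6 pups. The points of the 3 groups overlap in every panel, and *Adcy1* spans from 19.4 to 241 CPM while *Prkaca* stays between 137 and 192 CPM.

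Levels of different genes were compared as TPM, which is scaled to transcript length. *Prkaca* was the highest of the 10 genes at 123 ± 6.90 TPM in SAL (SD, n = 6), followed by *Adcy2* at 70.8 ± 12.9 TPM and *Arrb2* at 50.3 ± 4.22 TPM. *Adcy1* at 44.1 ± 46.3 TPM, *Adcy3* at 24.2 ± 4.42 TPM and *Arrb1* at 21.8 ± 17.6 TPM came next. The lowest were *Adcy6* at 14.6 ± 2.40 TPM, *Adcy8* at 11.5 ± 4.87 TPM, *Adcy9* at 5.65 ± 3.01 TPM and *Adcy7* at 2.84 ± 0.628 TPM. The genes kept these ranks in the means of PNO and IUO, and also when CPM was divided by the effective length. Only *Prkaca* had a range in SAL that did not overlap that of the next gene, and it lay above *Adcy2* in all 18 pups. *Adcy1* lay above *Adcy3* in only 11 of 18 pups, so that their order depended on the pup, whereas *Adcy8* lay above *Adcy9* in all 18 pups although their ranges overlapped. *Arrb2* lay above *Arrb1* in 17 of 18 pups, and the ratio of *Arrb2* to *Arrb1* in TPM ran from 0.813 to 7.08 in SAL (median 2.91), from 1.90 to 8.47 in PNO (median 4.21) and from 1.41 to 3.68 in IUO (median 2.35).

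**Figure D2:**
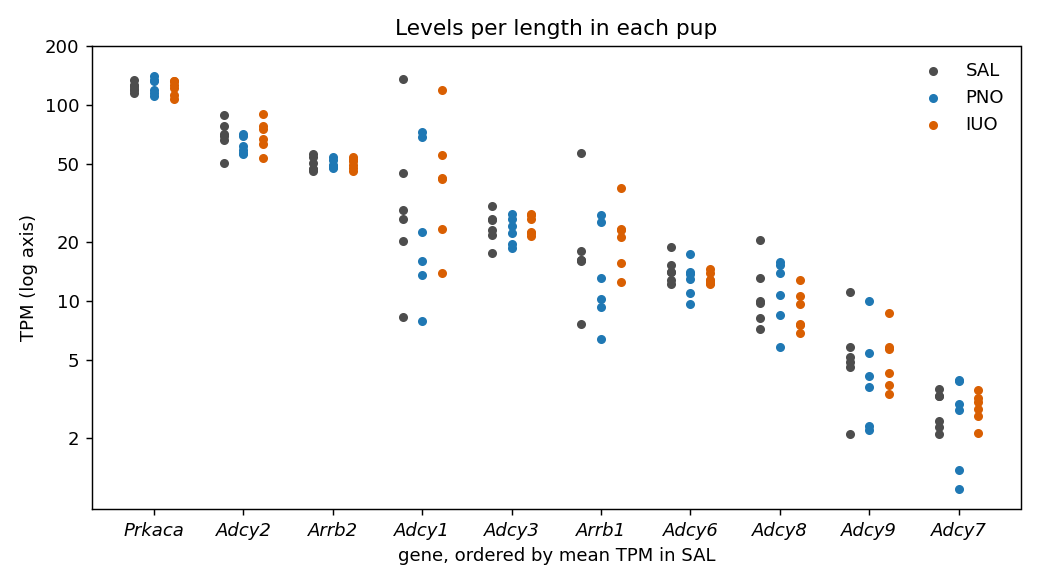
Deposited TPM (log axis) of the 10 genes in each of 18 pups, coloured by group and ordered by the SAL mean. *Prkaca* lies above *Adcy2* in every pup, and *Adcy1* and *Arrb1* have the tallest columns of points.

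Taking all 10 cyclase genes of the rat, including *Adcy4*, *Adcy5* and *Adcy10*, *Adcy2* made up 32.5 ± 5.33% of the summed cyclase TPM in SAL, 33.6 ± 6.62% in PNO and 29.7 ± 3.21% in IUO (SD, n = 6 each). The share of *Adcy1* was 16.8 ± 11.8% in SAL, 15.1 ± 9.53% in PNO and 18.9 ± 9.92% in IUO, with pups between 5.62% and 38.6%. *Adcy2* was the leading cyclase in 10 pups, *Adcy5* in 5 and *Adcy1* in 3. The order of the leading cyclases thus differed between pups within a group.

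Among the cyclases stimulated by calcium and calmodulin, *Adcy1*, a neuronal isoform known for its part in synaptic plasticity, ranged from 21.2 to 241 CPM in SAL (median 57.9), from 19.4 to 146 CPM in PNO (median 44.7) and from 30.6 to 231 CPM in IUO (median 90.4). Each group held both low and high pups, with SAL 6 and IUO 5 the highest pups and PNO 2 and SAL 4 the lowest. The log2 fold change was -0.30 in PNO relative to SAL (SE 0.59, adjusted p = 0.938), 0.23 in IUO relative to SAL (SE 0.59, adjusted p = 0.996) and 0.53 in IUO relative to PNO (SE 0.59, adjusted p = 0.683). The 95% interval of the last ran from -0.71 to 1.78, so that both a lower level and a level several fold higher in IUO lay within it. The direction turned with single pups. Without SAL 6, *Adcy1* was at 0.34 for PNO against SAL, and without IUO 5 it was at -0.21 for IUO against SAL. For IUO against PNO the sign held but the size moved, from 0.10 to 0.88 with each pup left out. Over the other alternative settings it ran from 0.06 to 1.08.

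*Adcy8*, the other calcium-stimulated isoform prominent in neurons, ranged from 20.3 to 49.0 CPM in SAL (median 30.3), from 18.7 to 46.3 CPM in PNO (median 35.9) and from 20.1 to 33.0 CPM in IUO (median 25.0). The IUO pups lay in the lower part of the range of the other groups and overlapped both. Its log2 fold change for IUO against PNO was -0.41 (SE 0.22, 95% interval -0.88 to 0.05), with the smallest adjusted p of any member in any comparison, 0.385. For IUO against SAL it was -0.30 (SE 0.22, adjusted p = 0.897), and for PNO against SAL 0.11 (SE 0.22, adjusted p = 0.939). *Adcy3*, known from olfactory neurons and primary cilia, was steadier, at 84.5 ± 14.0 CPM in SAL, 85.5 ± 9.63 CPM in PNO and 85.8 ± 7.33 CPM in IUO (SD, n = 6 each). The 3 log2 fold changes of *Adcy3* were 0.02, 0.02 and 0.01, each with an SE of 0.10. Its expected counts were fractional in all 18 pups, which shows that some of its reads were shared out between genes.

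Of the cyclases that respond to G protein beta-gamma subunits and protein kinase C, *Adcy2* was abundant, with 120 to 158 CPM in SAL (median 137), 120 to 138 CPM in PNO (median 130) and 109 to 162 CPM in IUO (median 141). The PNO pups covered the narrowest range and lay inside the ranges of both other groups. The log2 fold changes of *Adcy2* were -0.09 in PNO and 0.01 in IUO relative to SAL, and 0.10 between IUO and PNO, with an SE of 0.09 each and adjusted p-values of 0.912, 0.996 and 0.602. *Adcy7*, known for its expression in blood-derived cells and microglia, was the lowest member, with 62 to 251 counts per pup. It ranged from 4.95 to 10.2 CPM in SAL (median 7.20), from 3.25 to 10.9 CPM in PNO (median 7.73) and from 5.52 to 9.29 CPM in IUO (median 7.39). At the lowest count the counting error alone is 12.7%, which is less than the spread between pups. The *Adcy7* log2 fold changes of -0.04, 0.00 and 0.04 had an SE of 0.25 each.

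*Adcy6*, a cyclase inhibited by calcium, ranged from 46.4 to 58.3 CPM in SAL (median 53.0), from 40.2 to 57.3 CPM in PNO (median 51.2) and from 45.5 to 50.9 CPM in IUO (median 46.9). The IUO pups were closely grouped near the lower end of SAL. The log2 fold change for IUO against SAL was -0.15 (SE 0.08, 95% interval -0.31 to 0.02, adjusted p = 0.783), and those for PNO against SAL and IUO against PNO were -0.07 and -0.08 (SE 0.08 each). *Adcy9*, a widely expressed isoform that is poorly activated by forskolin, ranged from 7.09 to 26.6 CPM in SAL (median 13.8), from 7.04 to 25.4 CPM in PNO (median 12.2) and from 9.55 to 22.3 CPM in IUO (median 14.1). Its log2 fold changes were -0.20, -0.06 and 0.14 with an SE of 0.32 each, and without SAL 6 the value for PNO against SAL was 0.03.

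*Prkaca*, which encodes the alpha catalytic subunit of PKA, was among the steadiest members. It lay between 137 and 185 CPM in SAL (median 167), between 169 and 192 CPM in PNO (median 176) and between 150 and 182 CPM in IUO (median 159). The PNO pups had the highest median and lacked the low values seen in the other groups, but the ranges overlapped. The log2 fold change was 0.10 in PNO relative to SAL (SE 0.07, 95% interval -0.05 to 0.25, adjusted p = 0.912), -0.02 in IUO relative to SAL (SE 0.07, adjusted p = 0.996) and -0.12 in IUO relative to PNO (SE 0.07, 95% interval -0.27 to 0.03, adjusted p = 0.423).

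Of the beta-arrestins, *Arrb1* ranged from 15.3 to 79.8 CPM in SAL (median 26.4), from 12.4 to 41.0 CPM in PNO (median 21.4) and from 21.0 to 57.5 CPM in IUO (median 37.0). SAL 6 was the highest pup and PNO 2 the lowest. The log2 fold change was -0.41 in PNO relative to SAL (SE 0.36, adjusted p = 0.912), 0.09 in IUO relative to SAL (SE 0.36, adjusted p = 0.996) and 0.50 in IUO relative to PNO (SE 0.36, 95% interval -0.26 to 1.26, adjusted p = 0.527). With limma-voom and sample quality weights, which give less weight to libraries that stand apart, *Arrb1* passed for IUO against PNO at 0.78 (adjusted p = 0.0467), the one call of a member under any setting. The same fit called 12.9% of all genes in that comparison. Over all settings other than the main fit and leaving out a pup, limma-voom included, that adjusted p lay between 0.0467 and 0.596. It lay between 0.293 and 0.795 in edgeR with each pup left out in turn. Without SAL 6, *Arrb1* was at 0.04 for PNO against SAL and 0.53 for IUO against SAL. *Arrb2* varied less, at 51.8 ± 9.26 CPM in SAL, 54.3 ± 6.62 CPM in PNO and 51.2 ± 2.74 CPM in IUO (SD, n = 6 each), with log2 fold changes of 0.07, -0.02 and -0.09 and an SE of 0.10 each. Its expected counts, too, were fractional in all 18 pups.

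**Figure D3:**
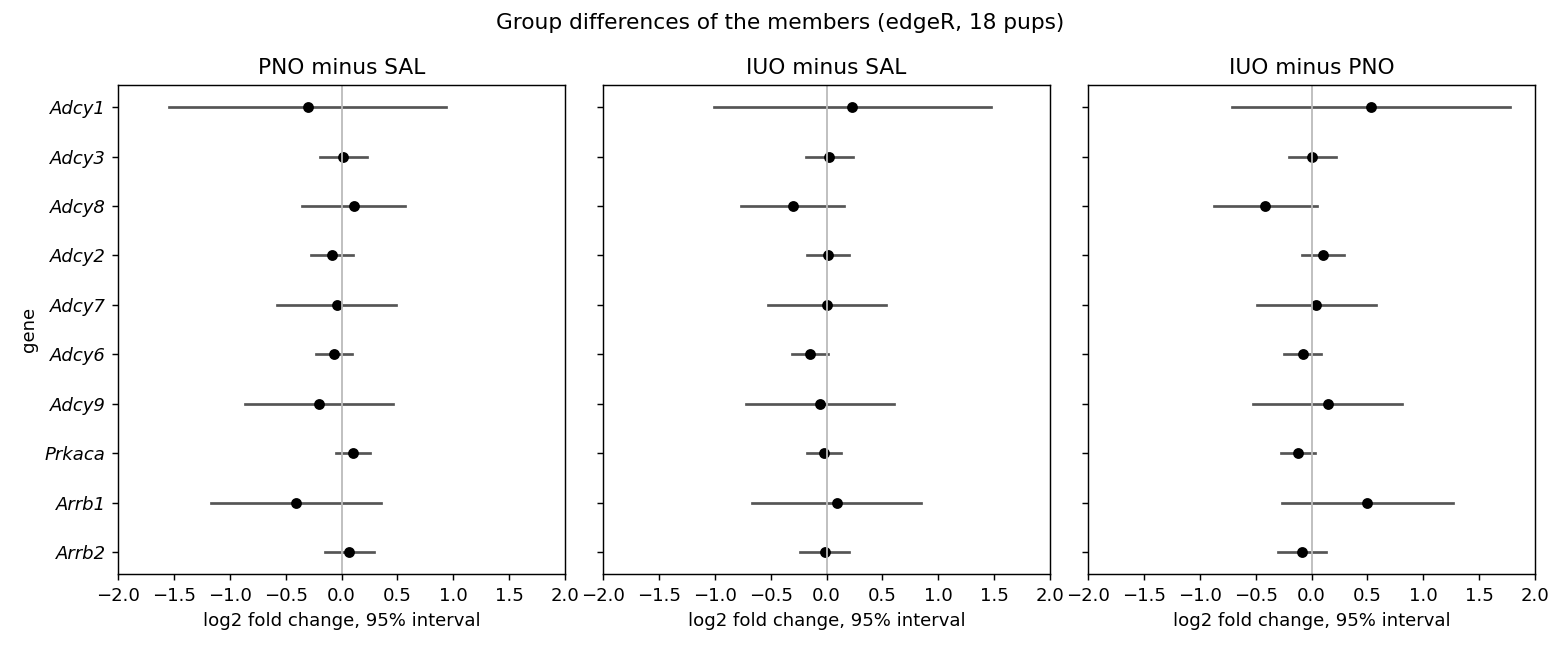
Log2 fold change (point) and its 95% interval (line) for the 10 genes in the 3 comparisons, from edgeR over 18 pups. All 30 intervals include 0, and those of *Adcy1*, *Arrb1* and *Adcy9* are the widest.

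Of the 10 members, 4 were higher and 6 lower in PNO than in SAL, with a median log2 fold change of -0.05 beside 0.00 over all genes tested. For IUO against SAL 5 were higher and 5 lower (median -0.01, beside -0.01 over all genes), and for IUO against PNO 6 were higher and 4 lower (median 0.03, beside 0.00). The 3 comparisons share their groups and are not independent of each other.

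The spread within groups separated the members. The SD of log2 CPM between pups of 1 group was 1.12 for *Adcy1*, which is wider than in 97.6% of the genes tested, 0.66 for *Arrb1* (90.6%) and 0.59 for *Adcy9* (87.1%). It was 0.12 for *Prkaca* (10.2%), 0.13 for *Adcy6* (13.6%) and 0.16 for *Adcy2* (22.2%). The highest pup exceeded the lowest 12.4-fold for *Adcy1*, 6.41-fold for *Arrb1*, 3.77-fold for *Adcy9*, 3.36-fold for *Adcy7* and 2.62-fold for *Adcy8*, and between 1.40-fold and 1.67-fold for the other 5 members. Counting error at the lowest count was 5.21% for *Adcy1* and 6.51% for *Arrb1*, far below these spreads.

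The members that varied most did so in the same pups. With group means removed, log2 CPM of *Adcy1* and *Arrb1* were correlated over the 18 pups at r = 0.953 (rho = 0.963), with an adjusted permutation p of 0.00045 for both over 45 pairs. The unadjusted p of 1e-05 is the smallest that these permutations can give. The value was 0.961 among SAL pups, 0.997 among PNO pups and 0.894 among IUO pups, and without the 2 pups farthest from the median of *Adcy1* it was 0.938. *Adcy9* was correlated with *Arrb1* at r = 0.909 (rho = 0.905, adjusted permutation p = 0.00045 for both) and with *Adcy1* at r = 0.890 (rho = 0.893, adjusted permutation p = 0.00056 and 0.00045). Without the 2 farthest pups these were 0.895 and 0.844.

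A separate pair was formed by *Adcy6* and *Adcy8*, with r = 0.871 and rho = 0.816 (adjusted permutation p = 0.00056 and 0.003). It held within each group, at 0.915 in SAL, 0.905 in PNO and 0.845 in IUO, and without the 2 farthest pups at 0.852. *Arrb2* and *Prkaca* were correlated at r = 0.730 and rho = 0.713 (adjusted permutation p = 0.013 and 0.011), with r = 0.948 in SAL but 0.508 in PNO and 0.459 in IUO, and 0.500 without the 2 farthest pups. Without normalization beyond library totals it was 0.501 and did not pass. *Arrb2* ran opposite to *Arrb1* at r = -0.749 (adjusted permutation p = 0.019), to *Adcy1* at -0.676 (adjusted permutation p = 0.033) and to *Adcy9* at -0.676 (adjusted permutation p = 0.040). These inverse relations did not hold by rank, with adjusted permutation p-values for rho of 0.10, 0.13 and 0.099, and did not hold in IUO, where r was 0.379, 0.163 and 0.384. That of *Arrb1* with *Arrb2* no longer passed without SAL 4 or without PNO 5. In all, 8 of the 45 pairs passed, 5 of them positive, with a median r of 0.062 over all pairs. Correlations between pairs of other genes are not given here, so that the count of 8 does not set the members apart.

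**Figure D4:**
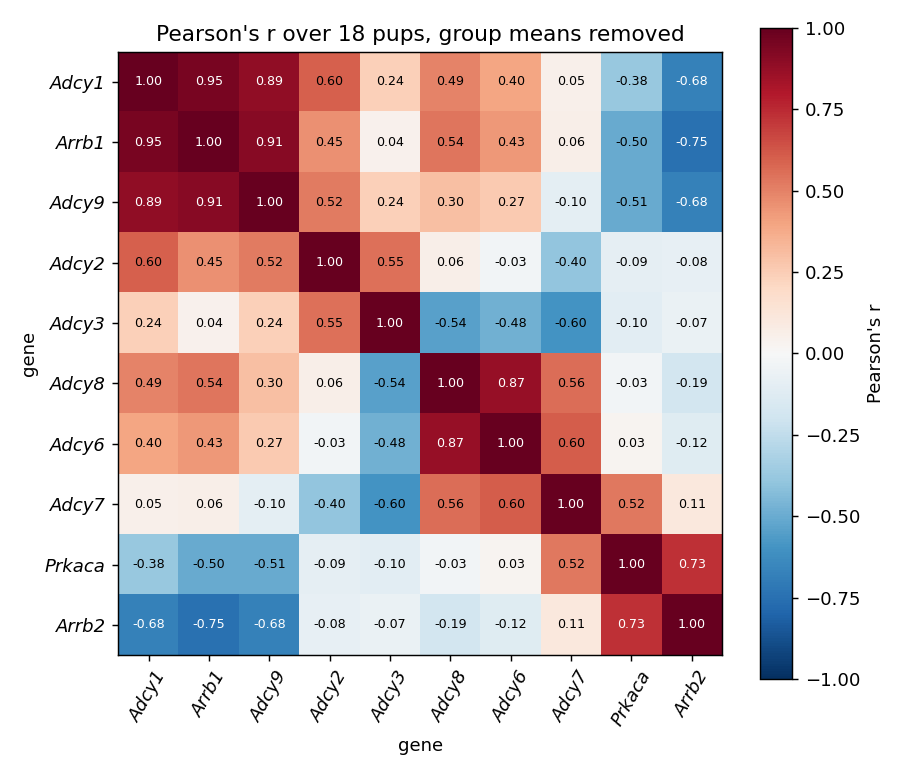
Pearson's r between each pair of members over 18 pups, computed on log2 CPM after removing group means. *Adcy1*, *Arrb1* and *Adcy9* form a block of r from 0.89 to 0.95 at the upper left, *Adcy6* and *Adcy8* stand at 0.87, and *Arrb2* is negative with the first block.

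The same pups stood apart in the make-up of their libraries. The percent of a pup's counts that came from genes over 4000 bases of effective length, a measure chosen after the data were seen, ran from 16.1% in PNO 2 to 24.6% in SAL 6, and the percent from mitochondrial genes ran from 6.96% to 16.3%. For neither did a difference between groups pass (exact permutation test, smallest p = 0.277, adjusted p = 0.872). The long-gene share was correlated over the 18 pups with *Arrb1* at r = 0.962 (rho = 0.940, adjusted permutation p = 0.0001 and 0.00015), with *Adcy1* at 0.936 (rho = 0.913, adjusted permutation p = 0.0001 and 0.0002) and with *Adcy9* at 0.892 (rho = 0.889, adjusted permutation p = 0.0001 and 0.0003). Without the 2 farthest pups these were 0.934, 0.925 and 0.827, and they held within each group, the lowest being 0.834. *Arrb2* ran the other way at r = -0.772 (adjusted permutation p = 0.0053) but did not pass by rank (rho = -0.581, adjusted permutation p = 0.058), with -0.854 in SAL and -0.915 in PNO but 0.086 in IUO. Of the other members, given with their effective lengths in bases, 5 were *Adcy6* (5809) at r = 0.485, *Adcy3* (5619) at 0.074, *Adcy8* (4513) at 0.564, *Adcy7* (4090) at 0.034 and *Adcy2* (3143) at 0.416, and did not pass. *Prkaca* (2146) passed at r = -0.588 (adjusted permutation p = 0.044) but not by rank (rho = -0.344, adjusted permutation p = 0.22). Its r was -0.304 without the 2 farthest pups, on which it therefore rests, and -0.896 in SAL, -0.528 in PNO and -0.064 in IUO. The effective lengths of the first 4 were 2652 for *Arrb1*, 3370 for *Adcy1*, 4483 for *Adcy9* and 1633 for *Arrb2*, so that the 2 shortest members had negative values and the other 8 had values from 0.034 to 0.962. Such relations were common, since 20.8% of the 15703 genes had an r beyond 0.8 in either direction. In all, 15 of 30 relations of members with the long-gene, short-gene and mitochondrial shares passed by r. These shares come from the same totals and are not independent, and *Adcy1*, *Adcy9*, *Arrb1* and *Arrb2* passed with each of them. The share of all genes that would pass by this rule is not given here, so that the count does not set the members apart.

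With the long-gene share as a covariate, also chosen after the data were seen, the SE of the IUO against PNO difference fell from 0.59 to 0.22 for *Adcy1*, from 0.36 to 0.10 for *Arrb1* and from 0.32 to 0.16 for *Adcy9*. Their differences for IUO against PNO were then 0.06, 0.20 and -0.11 (adjusted p = 0.920, 0.348 and 0.762). *Adcy8* was at -0.54 (SE 0.19, adjusted p = 0.168). Thus 0 of the 10 members passed with the covariate in any comparison. Over all genes the share called by this fit was 0% for PNO and 0.0509% for IUO relative to SAL. It was 0.949% for IUO relative to PNO, so that the count does not set the members apart. The part of library make-up in the variation of these genes was not tested beyond this fit.

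**Figure D5:**
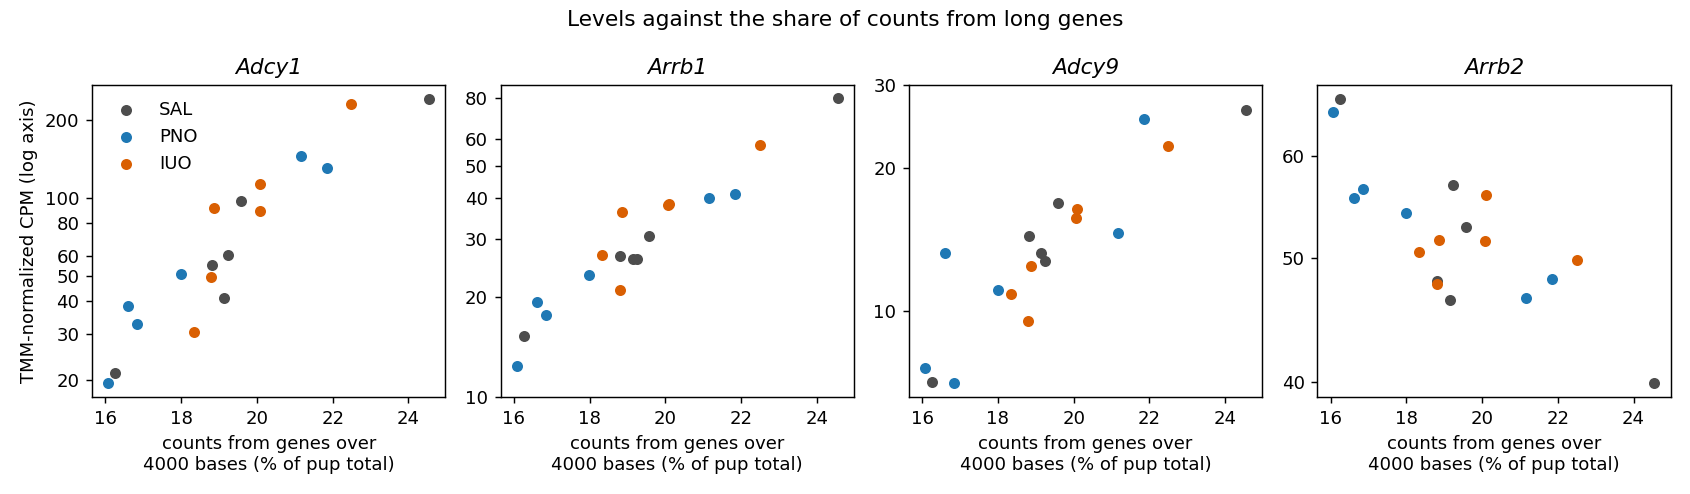
CPM (log axis) of 4 members in each of 18 pups against the percent of that pup's counts from genes over 4000 bases. *Adcy1*, *Arrb1* and *Adcy9* rise from PNO 2, at 16.1%, to SAL 6, at 24.6%, in all groups, and *Arrb2* falls in SAL and PNO.

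Bulk tissue was measured, in which fewer cells of a type and less RNA per cell cannot be told apart. Markers of excitatory cortical neurons (*Slc17a7*, *Camk2a*, *Neurod6*, *Tbr1*) were present in every pup, with a summed level of 1086 to 2438 CPM in SAL, 1432 to 2358 in PNO and 1153 to 2277 in IUO. Markers of striatal neurons (7 genes, among them *Drd1*, *Drd2* and *Adora2a*) summed to 129.9 to 997 CPM in SAL, 172 to 772 in PNO and 276 to 1094 in IUO, and choroid plexus markers (4 genes with *Ttr*) to 3.19 to 542, 2.18 to 967 and 0.473 to 252. In 21 tests of 7 marker scores between groups, 0 had an adjusted p under 0.05 and 3 had an unadjusted p under it (exact permutation test). These 3 were IUO minus PNO, at -1.36 on the log2 scale for oligodendrocytes and myelin (exact p = 0.0108), -0.44 for inhibitory neurons and -0.16 for microglia (exact p = 0.0216 each), with an adjusted p of 0.152 for each. All 7 myelin markers had negative log2 fold changes for IUO against PNO, from -2.26 to -0.94, and 0 of them passed (smallest edgeR adjusted p = 0.0725). The other 2 scores each rested mostly on 1 gene. Among inhibitory markers *Pvalb*, which marks a class of these neurons, fell by 2.34 on the log2 scale (edgeR adjusted p = 0.0356) and is one of the 10 genes called between IUO and PNO, while the other 4 (*Sst*, *Gad1*, *Gad2* and *Slc32a1*) ran from -0.34 to 0.26. Among microglia markers *Tmem119* was at -1.32 (edgeR adjusted p = 0.0524), and the other 6 ran from -0.03 to 0.08.

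Of 70 relations between the 10 members and the other 7 scores, 0 had an adjusted permutation p under 0.05 and 12 had an unadjusted one. The largest r in size was that of *Adcy8* with the striatal score, at r = -0.750 and rho = -0.692 (adjusted permutation p = 0.078 and 0.16). Taken group by group, r was -0.782 in SAL, -0.658 in PNO and -0.874 in IUO. *Adcy6*, which varied with *Adcy8*, stood at r = -0.633 with the same score, and *Adcy9* at r = 0.719 with the astrocyte score (adjusted permutation p = 0.11 each). The striatal score was higher by 0.93 on the log2 scale in IUO than in PNO (exact permutation p = 0.119, adjusted p = 0.409), the same comparison in which *Adcy8* had its lowest value, and its part in that value was not tested. The excitatory neuron score is the mean over the 4 genes named above. 1 further gene of its list was left out after the data were seen, so that the score is described without a test. Over the 18 pups its r was 0.861 with *Adcy2* (rho = 0.876), 0.718 with *Adcy1* (rho = 0.744) and 0.693 with *Adcy3* (rho = 0.682). For *Adcy2* it was 0.930, 0.572 and 0.935 within SAL, PNO and IUO.

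Promoter windows of 250 bases before the start site were found in RefSeq (GRCr8) for 5 of the 10 members, *Adcy1*, *Adcy2*, *Adcy7*, *Adcy9* and *Prkaca*. The window of *Adcy1* may run into coding sequence, which was not tested, and it is kept in the count of 5. Each of the 5 windows was searched on both strands for TGACG, the half-site of the cyclic AMP response element. This reads CGTCA on the other strand. It occurred in 2 of the 5, and in 18.2% of the 33469 windows of the same length in the table. Those 2 windows are shown because they hold the matches. Start sites are those of the table and were not checked. The first lies at chr10:11645595-11645844 on the plus strand and the other at chr19:41083190-41083439 on the minus strand, and capitals mark the matches. A match of letters does not show that a factor binds there.
Adcy9: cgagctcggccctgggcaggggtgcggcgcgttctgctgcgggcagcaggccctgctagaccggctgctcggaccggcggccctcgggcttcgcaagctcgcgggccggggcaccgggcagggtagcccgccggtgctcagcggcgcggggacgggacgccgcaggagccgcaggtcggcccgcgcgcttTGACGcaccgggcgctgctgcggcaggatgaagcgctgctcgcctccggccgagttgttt
Prkaca: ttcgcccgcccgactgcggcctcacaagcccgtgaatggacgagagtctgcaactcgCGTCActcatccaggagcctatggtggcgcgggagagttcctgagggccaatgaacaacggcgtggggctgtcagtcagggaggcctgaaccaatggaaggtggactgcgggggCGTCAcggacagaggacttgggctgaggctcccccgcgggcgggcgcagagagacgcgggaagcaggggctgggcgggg

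Beyond the members, 6 lists held 56 symbols for further genes of cyclic AMP and arrestin signalling. *Grk2* and *Grk3* stood among them also under the older symbols *Adrbk1* and *Adrbk2*. Of the symbols, 54 were matched and 52 were tested. Of these, 0 had an adjusted p under 0.05 in edgeR in any comparison. At an unadjusted p under 0.05 the edgeR counts were 0 for PNO and 2 for IUO relative to SAL (1 higher, 1 lower), and 2 for IUO relative to PNO (1 higher, 1 lower), beside the shares of all genes given above (4.5%, 6.88% and 15.3%). *Pde8a*, a phosphodiesterase that hydrolyses cyclic AMP, ranged from 4.26 to 5.25 CPM in SAL, from 3.62 to 7.59 in PNO and from 3.27 to 4.13 in IUO. The IUO and SAL pups did not overlap, as in 0.745% of all genes, and the log2 fold change was -0.42 for IUO against SAL (SE 0.15, adjusted p = 0.565) and -0.54 for IUO against PNO (SE 0.15, adjusted p = 0.127). *Prkar2b*, a regulatory subunit of PKA that is abundant in brain, ranged from 190 to 253 CPM in SAL, from 171 to 269 in PNO and from 226 to 274 in IUO, with log2 fold changes of 0.22 for IUO against SAL (SE 0.10, adjusted p = 0.713) and 0.28 for IUO against PNO (SE 0.10, adjusted p = 0.208).

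The other pathway genes with the smallest p of their list stayed within the spread of the pups. *Adcy5*, the main cyclase of the striatum, ranged from 78.7 to 274 CPM in SAL, from 83.7 to 205 in PNO and from 143 to 273 in IUO, with log2 fold changes of -0.20, 0.35 and 0.55 for PNO and IUO relative to SAL and for IUO relative to PNO (SE 0.31 each). For PNO against SAL the anchoring protein gene *Akap8* was at -0.21 (SE 0.11), the phosphodiesterase *Pde4a* at -0.24 (SE 0.12), the receptor kinase *Grk6* at -0.11 (SE 0.06), the PKA inhibitor *Pkig* at 0.10 (SE 0.12) and the coactivator *Crebbp* at 0.15 (SE 0.07), each with an adjusted p of 0.912 or 0.918. For IUO against SAL *Akap13* was at -0.28 (SE 0.25), *Grk4* at 0.15 (SE 0.15) and *Crebbp* at 0.12 (SE 0.07). For IUO against PNO *Akap9* was at 0.29 (SE 0.16), *Grk5* at 0.30 (SE 0.16) and the CREB coactivator *Crtc3* at 0.42 (SE 0.21), with adjusted p-values of 0.402, 0.395 and 0.343. Of the 52 genes, 12 had a positive log2 fold change in PNO relative to SAL (median -0.12), 30 in IUO relative to SAL (median 0.07) and 40 in IUO relative to PNO (median 0.12), beside medians over all genes of 0.00, -0.01 and 0.00.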

How the data were processed

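Groups and replicate numbers follow the titles of the 18 samples. The deposited tables give, for every gene, an expected count without normalization, in which reads that fit several genes are divided among them. TPM and effective length were also deposited by the authors, and TPM was used only to compare levels between genes. The deposited FPKM was not used. Aligner, quantifier, genome build and annotation are not given in the sources used here.

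After rounding, edgeR 4.0.16 (R 4.3.3) was run with TMM factors and filterByExpr as a two-sided quasi-likelihood test in 1 model of 3 groups, with Benjamini-Hochberg adjustment over 15703 genes. Totals per pup were 18381819 to 26084780, no 2 libraries were identical, and counting error is given at the lowest count. Log2 CPM used a prior count of 2. Relations over pups were tested with 100000 permutations within groups (two-sided) on log2 CPM minus group means. Marker scores are means of log2 CPM over a list, tested by exact permutation (two-sided). 1 gene of the excitatory neuron list is not reported here and was left out of that score after the data were seen, so that the score entered no test and no adjustment. Alternatives used DESeq2 1.42.0 and limma 3.58.1, other normalizations, no filter, 12 pups, a replicate block, and each pup left out. Tests were tested on simulated data. Python 3.11.15 with scipy 1.17.1, pandas 2.3.3, numpy 2.4.6 and matplotlib 3.10.9 gave the tables and plots.

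The members and lists were chosen with earlier results of these data known. Named genes are all members, any pathway gene with an adjusted p under 0.05, and the gene with the smallest p of each pathway list in each comparison.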

Additional observations from a re-analysis of the deposited data

How the results depend on the processing

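Members had small differences relative to their error, and several changed sign. Of 240 values of members under settings other than leaving out a pup, 226 kept direction and call, 13 changed sign and 1 gained a call. The cause was not tested. With the long-gene share as a covariate (chosen after the data were seen), PNO against SAL was 0.26 for *Adcy1* and 0.061 for *Adcy9*, IUO against SAL 0.011 for *Arrb2*, and IUO against PNO -0.00092 for *Adcy3*, -0.11 for *Adcy9* and 0.0087 for *Arrb2*. *Adcy3* in PNO against SAL was -0.027 without normalization beyond totals and -0.035 with limma-voom. For IUO against SAL, limma-voom gave -0.0022 for *Adcy7* and 0.14 for *Adcy9*, no filter gave -0.0048 and only 12 pups gave -0.0031 for *Adcy7*, and the replicate block gave 0.0074 for *Adcy9*. Members at an unadjusted p under 0.05 were 1 for IUO against SAL with only 12 pups and 1 with the covariate, and for IUO against PNO 4 with limma-voom and 1 with the covariate, beside 7.36%, 11.9%, 34.0% and 16.9% of all genes. Members called were 1 for IUO against PNO with limma-voom, where *Arrb1* was at 0.78 (adjusted p = 0.0467). Pathway genes called for IUO against PNO were 1 with DESeq2 and 8 with limma-voom (of 52), beside 2.78% and 12.9% of all genes.

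Leaving out each pup in turn, 311 of 360 values kept direction and call and 49 changed sign. For PNO against SAL the ranges were -0.66 to 0.34 for *Adcy1*, -0.021 to 0.11 for *Adcy3*, -0.20 to 0.11 for *Adcy7*, -0.50 to 0.029 for *Adcy9* and -0.60 to 0.037 for *Arrb1*, with the sign of *Adcy1*, *Adcy9* and *Arrb1* turned only without SAL 6. For IUO against SAL they were -0.21 to 0.87 for *Adcy1*, -0.042 to 0.066 for *Adcy2*, -0.022 to 0.11 for *Adcy3*, -0.094 to 0.12 for *Adcy7*, -0.23 to 0.17 for *Adcy9*, -0.10 to 0.53 for *Arrb1*, -0.086 to 0.068 for *Arrb2* and -0.075 to 0.013 for *Prkaca*. For IUO against PNO they were -0.033 to 0.044 for *Adcy3*, -0.10 to 0.21 for *Adcy7* and -0.026 to 0.44 for *Adcy9*. Members at an unadjusted p under 0.05 ran from 0 to 1 in IUO against SAL (1 without SAL 3) and in IUO against PNO (1 without PNO 3, IUO 5 or IUO 6). Of all genes, 454 higher and 585 lower of 15814 had such a p for IUO against SAL without SAL 3. For IUO against PNO these were 872 and 1211 of 15825 without PNO 3, and 679 and 1124 of 15802 without IUO 5. Without IUO 6 they were 954 and 1338 of 15798. A count of 1 among 10 thus does not set the members apart. Pairs of members that passed ran from 5 (without SAL 4 or PNO 5) to 10, and relations with marker scores from 0 to 5 (1 without SAL 1, 2 without SAL 5 and 5 without PNO 1), where 0 passed with all pups. 

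Groups carry the same replicate numbers, which no label ties to a litter or batch. Correlations of same-numbered deviations averaged 0.232 for PNO and SAL, -0.027 for IUO and SAL and 0.063 for IUO and PNO. They were over 0.1 in 4, 1 and 3 of 6 pairs, and were best with the own number in 6, 1 and 4 of 12 pups. These values were highest for PNO and SAL, and whether the numbers pair those pups was not tested. The main fit did not pair pups. With the replicate block 0 members were called, beside 0 of all 15703 genes in each comparison with SAL. For IUO against PNO that fit called 2 genes higher and 4 lower, so that the count does not set the members apart. Depth limited *Adcy7* most, and litter and sex could not be modelled.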
